A study of Homo sapiens with 6 samples.

Results

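The 8 genes described here act in the synthesis of cholesterol and in its control, and were chosen by their symbols: HMGCS1, MVD, IDI1, FDFT1, SQLE, LSS, DHCR7 and INSIG1. All 8 were listed in each library, among 19684 genes with an Ensembl identifier. The cells were K1, an established human papillary thyroid carcinoma (PTC) line, transfected with a negative control siRNA (NC) or with an siRNA against NEAT1_2, the long isoform of the lncRNA NEAT1 (si-NEAT1_2). Each group held 3 mRNA-seq libraries, and the authors also deposited 1 table with a single value per gene and group. The time between transfection and RNA extraction was not given in the sources used here, and NEAT1 was not analysed here. The comparison asks which mRNAs differ once NEAT1_2 is targeted. Nothing in the labels says how separate the 3 cultures of a group were, so the p-values measure the spread between these libraries, which may be technical.

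Cells build cholesterol from acetyl-CoA through mevalonate, the isoprenoids and squalene, and the same isoprenoids also feed ubiquinone, dolichol and the lipid anchors of proteins. When sterols run low in the endoplasmic reticulum, SCAP escorts the transcription factor SREBP2 to the Golgi, where it is cut and released to switch on most genes of the pathway. INSIG proteins hold SCAP back when sterols are plentiful. SREBP proteins bind sterol regulatory elements next to sites of the general factors NF-Y (CCAAT) and SP1, and for this reason the pathway is known to be switched as a block in many cell types.

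Of the 8 genes, 6 had a RefSeq promoter window, taken from 250 bases before to 50 after each annotated start, with 10 windows in all (assembly GRCh38.p14). FDFT1 and SQLE had no window. The letters CCAAT, searched on both strands, stood in a window of 6 of 6 genes and in 7 of 10 windows, against 34.6% of 35116 windows of all genes. The SP1 letters GGGCGG stood in a window of 6 of 6 genes and in 9 of 10 windows, against 45.0% of all windows. Matches of these letter strings can share bases, where ATTGG runs into GGGCGG, and were counted separately. The sterol regulatory element in the form TCACNCCAC stood in 0 of 10 windows and in 1.13% of all windows, which says only that these letters are absent from these windows. The stretch of each promoter that holds its CCAAT matches is given below because this motif stood in a window of each of the 6 genes, as GGGCGG did. For a gene with several windows, 1 is shown. It was chosen for the least overlap with exons annotated in GENCODE release 29, then for the most matches before the start. The matches before the start are in capitals (ATTGG is CCAAT on the other strand). The sequences run 5′ to 3′ on the strand of the gene, and with this choice they overlap those exons by at most 20 bases. The stretch of DHCR7 lies inside the annotated gene (chr11:71428193-71452868).
HMGCS1, chr5:43313493-43313582, minus strand: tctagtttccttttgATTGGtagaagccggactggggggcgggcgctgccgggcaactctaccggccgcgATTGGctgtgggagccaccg
MVD, chr16:88663157-88663265, minus strand: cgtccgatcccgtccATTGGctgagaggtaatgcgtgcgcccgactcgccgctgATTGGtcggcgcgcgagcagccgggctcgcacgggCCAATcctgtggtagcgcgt
IDI1, chr10:1049217-1049349, minus strand: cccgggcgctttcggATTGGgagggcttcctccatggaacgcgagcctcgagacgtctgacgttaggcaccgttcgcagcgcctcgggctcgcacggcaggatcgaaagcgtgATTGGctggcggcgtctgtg
LSS, chr21:46228905-46228939, minus strand: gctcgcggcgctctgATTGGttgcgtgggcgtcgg
DHCR7, chr11:71448422-71448502, minus strand: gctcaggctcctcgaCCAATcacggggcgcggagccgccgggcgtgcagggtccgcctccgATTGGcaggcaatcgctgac
INSIG1, chr7:155297693-155297727, plus strand: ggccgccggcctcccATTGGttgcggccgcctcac
The stretch of MVD held 3 matches within 109 bases, the most of the 6 shown, and those of LSS and INSIG1 held 1 each. A match of letters is a description and not a site of binding.

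The labelled cell type was checked against marker genes. Of 7 thyroid follicular markers, TG, PAX8 and FOXE1 had a mean FPKM of at least 1, and of 5 epithelial markers EPCAM, KRT7, KRT8 and KRT18 did. Of 4 fibroblast markers COL1A1 alone reached a mean of 1 FPKM, and the list summed to between 2.25 and 4.4 FPKM in NC and between 2.29 and 4.27 FPKM in si-NEAT1_2. Endothelial markers summed to at most 0.18 FPKM in every library. Of 4 leukocyte markers CD68, a lysosomal protein, alone reached a mean of 1 FPKM, and the list summed to between 11.6 and 13.2 FPKM in the NC libraries and between 14.9 and 19.7 FPKM in the si-NEAT1_2 libraries. Whether these markers play any part in the values below was not tested. Total counts per library lay between 22798631 and 27066025, and 13109 features had enough counts to be tested. Of the variance of log2 CPM (counts scaled to library size by TMM), 55.1% fell on the first principal component. On it NC replicates 1, 2 and 3 were at -7.46, -43.3 and -15.0, and those of si-NEAT1_2 at -2.93, 52.7 and 15.9. Every NC library thus lay below every si-NEAT1_2 library. Gene loadings on it had a Spearman rho of 0.639 with the GC content of transcripts. This axis and the groups cannot be told apart here, so a correction for GC content may also remove group difference. Replicate 2 of si-NEAT1_2 and replicate 2 of NC stood apart from the other 4 libraries, so member values that rest on either are also given without it.

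The level of each gene was compared in FPKM, which is scaled for gene length and library size. FDFT1, which encodes squalene synthase and commits farnesyl diphosphate to sterols, was the most abundant member at 87.7 ± 13.2 FPKM (SD, n = 6), and its lowest library (74.5) lay above every value of the other 7 genes. SQLE (squalene epoxidase, a rate-limiting step after squalene) followed at 33.3 ± 3.49 FPKM, and DHCR7 (the reductase of the last step to cholesterol) at 25.6 ± 3.41 FPKM. SQLE was above DHCR7 and DHCR7 above INSIG1 in 6 of 6 libraries, although the ranges overlapped. INSIG1 (17.9 ± 1.90), MVD (17.4 ± 3.70), LSS (17.4 ± 1.28) and IDI1 (16.4 ± 2.09) could not be ordered, as the ranges of neighbours overlapped and their order changed between libraries. HMGCS1, which condenses acetyl-CoA with acetoacetyl-CoA ahead of the step blocked by statins, was lowest at 8.57 ± 1.74 FPKM, and its highest library (11.1) was below the lowest of IDI1 (12.8).

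Between the libraries of both groups, no member passed the thresholds of the study, a 2-fold change together with an adjusted p under 0.05 (edgeR quasi-likelihood test, Benjamini-Hochberg over all 13109 features). This held for all features: 0 genes were called higher (0% of those tested) and 0 lower (0%), with 3165 at an unadjusted p under 0.05 and 25 higher and 48 lower calls with DESeq2, none of them a member. At an unadjusted p under 0.05, 1 of 8 members (FDFT1) was higher in si-NEAT1_2, against 11.2% of all features, and 0 of 8 were lower, against 12.9%. All 3 si-NEAT1_2 libraries lay above all 3 NC libraries in 1 of 8 members, against 15.4% of all features, and below them in 0 of 8, against 14.1%. These counts are near the shares of all features. In bulk RNA, fewer cells of a type and less RNA per cell cannot be told apart. The median log2 fold change of the 8 was 0.06, and that of all features tested was 0.01.

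**Figure D1:**
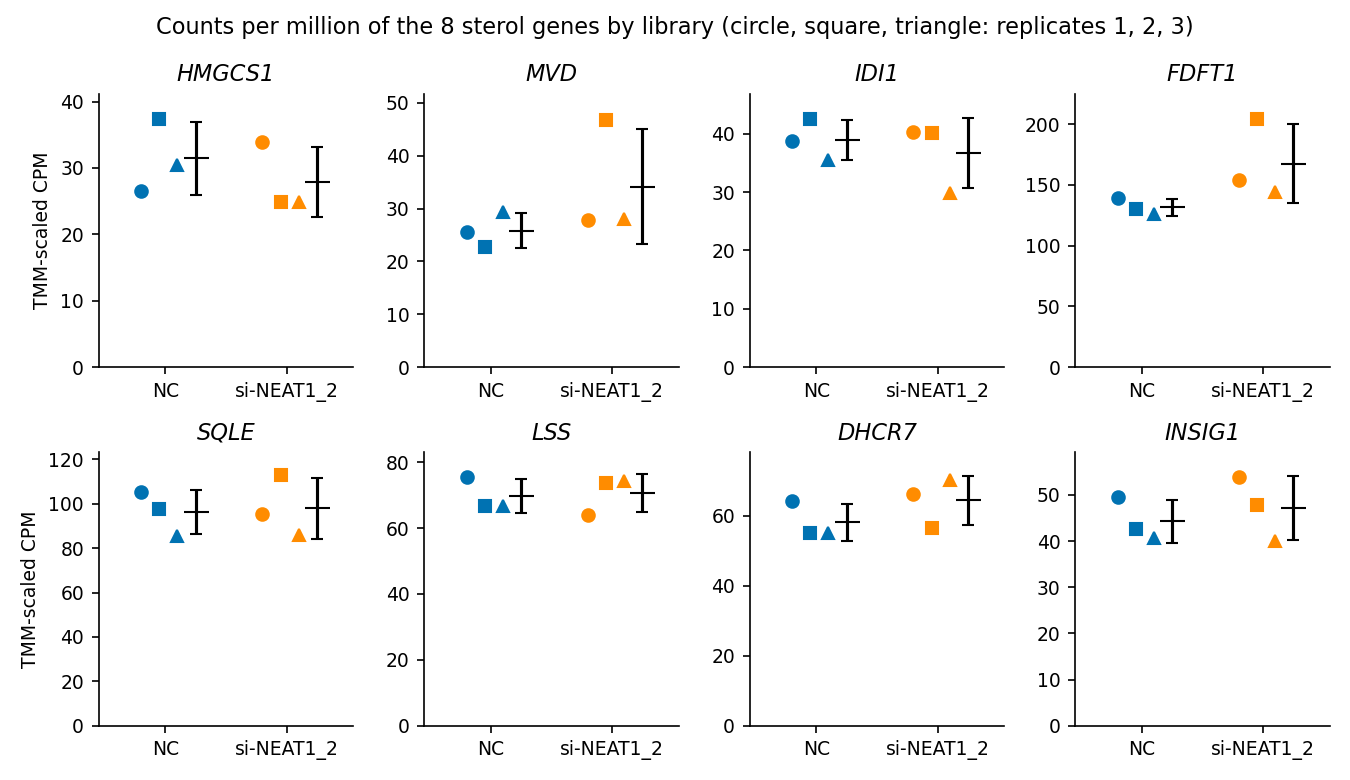
TMM-scaled CPM (y axes, from 0) of each of the 8 genes in the NC libraries (blue) and si-NEAT1_2 libraries (orange). Circles, squares and triangles are replicates 1, 2 and 3, and black bars the mean ± SD of each group (n = 3). FDFT1 is the gene whose groups do not overlap, and si-NEAT1_2 replicate 2 is the highest library of FDFT1 and MVD.

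The first steps of the pathway came out mixed. HMGCS1 had 26.6, 37.4 and 30.4 TMM-scaled CPM in the NC libraries (replicates 1, 2 and 3 in this order, here and for the other genes) against 34.0, 24.9 and 24.9 in those of si-NEAT1_2. Replicates 2 and 3 of si-NEAT1_2 were below the 3 NC libraries and replicate 1 was within their range. Its log2 fold change was -0.17 (SE 0.18, adjusted p = 0.556 by edgeR's quasi-likelihood test), and the omission of each library in turn moved it between -0.35 and -0.03.

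MVD, the decarboxylase that makes isopentenyl diphosphate from mevalonate diphosphate, had 25.5, 22.7 and 29.4 CPM in NC and 27.8, 46.7 and 28.0 CPM in si-NEAT1_2. The groups overlapped, and si-NEAT1_2 replicate 2 was far above the other 5 libraries. The log2 fold change was 0.40 (SE 0.211), the highest of the 8, with an adjusted p of 0.252 from the edgeR test and a 95% interval from -0.06 to 0.87. Without si-NEAT1_2 replicate 2 it was 0.10, and without NC replicate 2 it was 0.31. After trends with GC content and transcript length were removed per library, it was -0.03.

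IDI1, which isomerizes isopentenyl diphosphate to dimethylallyl diphosphate, had 38.8, 42.4 and 35.5 CPM in NC and 40.2, 40.2 and 29.8 CPM in si-NEAT1_2. The groups overlapped, with si-NEAT1_2 replicate 3 lowest. The log2 fold change was -0.08 (SE 0.157, adjusted p = 0.760, edgeR), and it was 0.05 without that library.

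FDFT1 (chr8:11795573-11839309, plus strand, GRCh38) was the member with an unadjusted p under 0.05. It had 139.5, 129.8 and 125.8 CPM in NC and 154.1, 204.5 and 143.9 CPM in si-NEAT1_2, with no overlap between the groups. The means were 131.7 ± 7.06 and 167.5 ± 32.5 CPM (SD, n = 3), a log2 fold change of 0.35 (SE 0.148) with an unadjusted p of 0.0390 and an adjusted p of 0.191 from the edgeR test. The 95% interval, 0.02 to 0.67, lay above 0 and below a 2-fold change. Without si-NEAT1_2 replicate 2 the log2 fold change was 0.17, and without NC replicate 2 it was 0.33. In FPKM the groups did not overlap either, with 86.0, 78.0 and 74.5 in NC and 87.6, 112.2 and 88.3 in si-NEAT1_2.

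SQLE had 105.4, 97.6 and 85.6 CPM in NC and 95.2, 112.8 and 85.8 CPM in si-NEAT1_2. LSS, the cyclase that makes lanosterol, the first sterol of the pathway, had 75.6, 66.7 and 66.7 CPM in NC and 64.0, 73.6 and 74.2 CPM in si-NEAT1_2. The groups overlapped in both genes, with log2 fold changes of 0.03 (SE 0.141) and 0.02 (SE 0.127), adjusted p of 0.920 and 0.931 (edgeR) and signs that turned under several alternatives. The 95% intervals were -0.29 to 0.34 for SQLE and -0.26 to 0.30 for LSS.

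DHCR7 had 64.2, 55.04 and 55.2 CPM in NC and 66.4, 56.6 and 70.4 CPM in si-NEAT1_2, with overlapping groups and a log2 fold change of 0.15 (SE 0.136, adjusted p = 0.497, edgeR). It was 0.23 without si-NEAT1_2 replicate 2, 0.11 when NC replicate 2 was left out, 0.08 when si-NEAT1_2 replicate 3 was left out and -0.09 once corrected for GC content and length. In FPKM si-NEAT1_2 replicate 2 (20.4) fell below every NC library (24.1 to 25.4), whereas in CPM it lay inside their range. The 2 scales differ in TMM as well as in length, and their parts were not separated.

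INSIG1, the sterol-controlled brake on SREBP processing and itself a target of SREBP, had 49.6, 42.7 and 40.7 CPM in NC and 53.9, 47.8 and 40.0 CPM in si-NEAT1_2. The groups overlapped at both ends. The log2 fold change was 0.09 (SE 0.15, adjusted p = 0.719, edgeR), and it was -0.02 without si-NEAT1_2 replicate 1, its highest library.

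**Figure D2:**
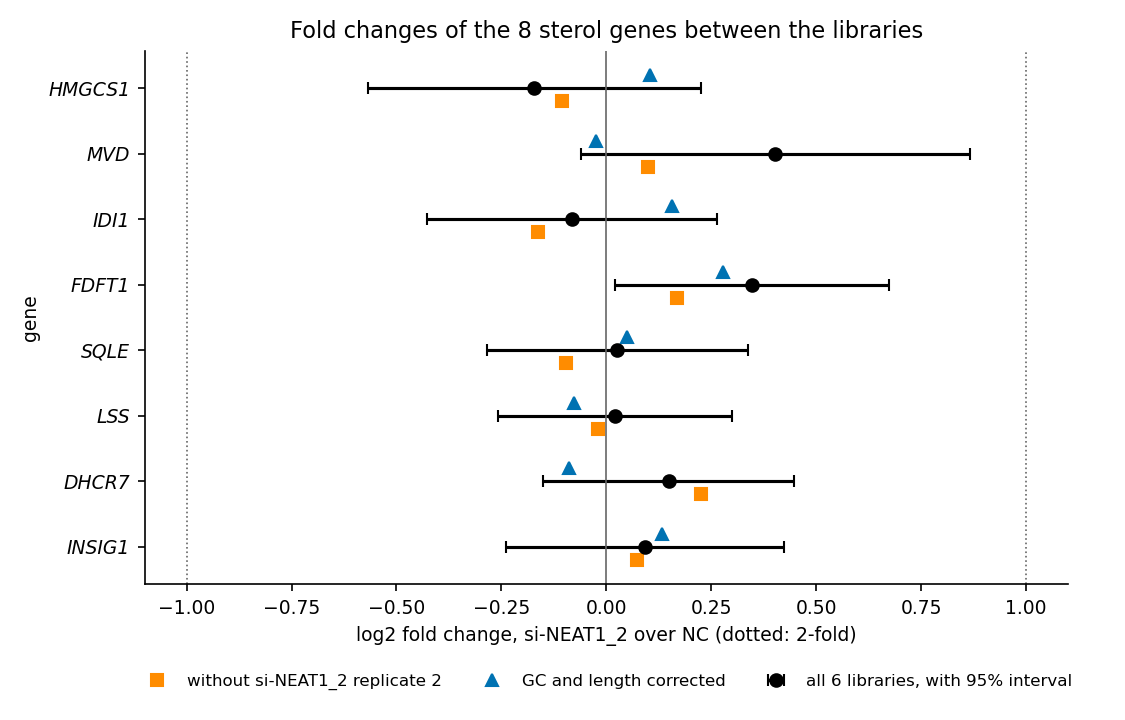
Log2 fold change of si-NEAT1_2 over NC (x axis) for each gene (y axis). Black circles with bars are the values from all 6 libraries with their 95% intervals, orange squares the values without si-NEAT1_2 replicate 2, and blue triangles the values after correction for GC content and length. Every interval lies inside the dotted lines at a 2-fold change, and that of FDFT1 alone lies clear of 0.

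The 95% intervals of all 8 genes stayed inside a 2-fold change in either direction. Among 28 pairs of members the median Pearson r of log2 CPM over the 6 libraries was 0.18, with 18 positive and 10 negative. The libraries span both groups and may also share steps of processing. The same value was not computed for other pairs of genes, so whether the members vary together more or less than other genes was not tested. MVD and FDFT1 were closest (r = 0.88) and HMGCS1 and LSS most opposed (r = -0.87). Averaged over the 8 genes and centred on each gene's mean, log2 CPM was highest in si-NEAT1_2 replicate 2 (0.16) and lowest in NC replicate 3 (-0.10), close to si-NEAT1_2 replicate 3 (-0.09).

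The members also differed in base composition, which is a property of their transcripts. HMGCS1 (40.2% GC) and IDI1 (41.1%) had the lowest GC content and were the 2 members with a negative fold change, and MVD (65.6%) had the highest GC content and the highest fold change. Between them lay INSIG1 (46.0%), SQLE (46.5%), FDFT1 (48.6%), LSS (58.3%) and DHCR7 (58.3%). Their log2 fold changes, in this order, were 0.09, 0.03, 0.35, 0.02 and 0.15, and did not rise with GC content. Once corrected for GC content and length, the values of HMGCS1 and IDI1 became 0.10 and 0.16, those of MVD, LSS and DHCR7 became -0.03, -0.08 and -0.09, and that of FDFT1 was 0.28. INSIG1 was at 0.13 and SQLE at 0.05, and no member passed the thresholds. As said above, this correction may also remove group difference.

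**Figure D3:**
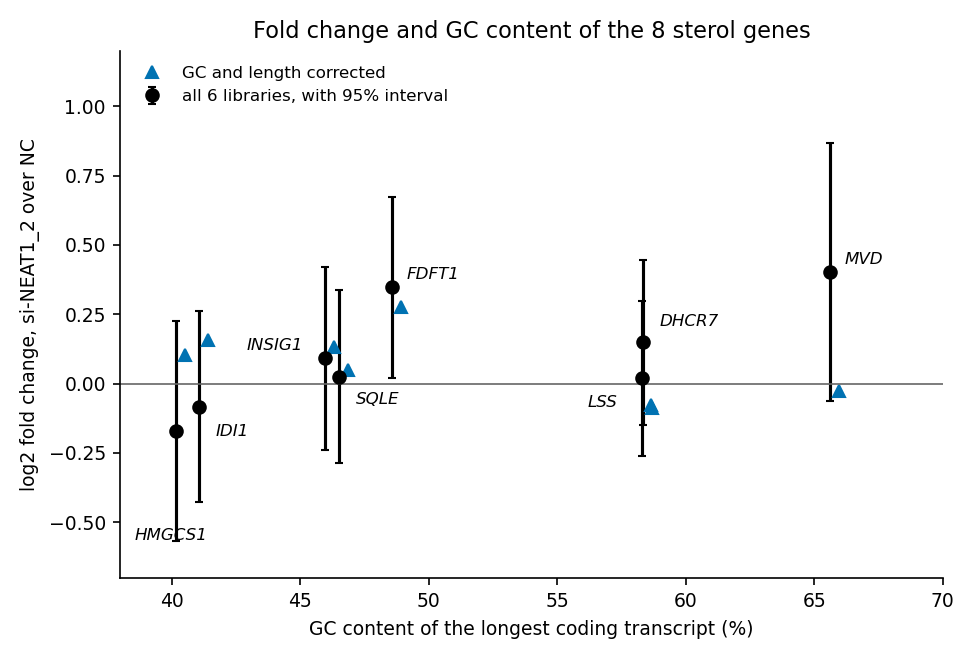
GC content of the longest coding transcript (x axis, percent) and log2 fold change of si-NEAT1_2 over NC (y axis) for the 8 genes. Black circles with 95% intervals are the uncorrected values and blue triangles, set slightly to the right, the values after correction for GC content and length. HMGCS1 and IDI1 at the low end lie below 0 and MVD at the high end is the highest, and after correction these 3 lie between -0.03 and 0.16. Uncorrected, FDFT1 at 48.6% GC lies above LSS and DHCR7 at 58.3%.

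The library names in the labels carry a code with the letter L and a number, whose meaning was not given in the sources used here. Within L2 (2 NC libraries and si-NEAT1_2 replicate 2) the log2 difference was 0.86 for MVD, 0.68 for FDFT1 and -0.44 for HMGCS1. Within L3 (1 library of each group) it was 0.13, 0.04 and -0.09, all smaller in size. For DHCR7 it was 0.04 within L2 and 0.13 within L3. The sign changed between L2 and L3 for SQLE (0.30 and -0.30), INSIG1 (0.20 and -0.31), IDI1 (0.05 and -0.38) and LSS (0.14 and -0.03). Each code held only 1 si-NEAT1_2 library, so these differences have no replicate error. si-NEAT1_2 replicate 1 was alone in its code and gave no value. With this number as a factor, the log2 fold change of FDFT1 was 0.41 and that of MVD 0.55, with adjusted p of 0.161 and 0.142 (edgeR).

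The other genes around the pathway were read in the same fit. Of 13 other enzymes of cholesterol synthesis, 9 had a higher and 4 a lower value in si-NEAT1_2, with a median log2 fold change of 0.19. That median was 0.02 without si-NEAT1_2 replicate 2, 0.02 once corrected for GC content and length, 0.105 when NC replicate 2 was left out and 0.29 when si-NEAT1_2 replicate 3 was. At an unadjusted p under 0.05 there were 3 higher genes (TM7SF2, with EBP and NSDHL named after their values were seen) and 1 lower (SC5D), against 11.2% and 12.9% of all features. None passed the thresholds, the lowest adjusted p being 0.170 (edgeR). TM7SF2, a sterol C14 reductase, had 2.92, 2.04 and 3.18 FPKM in NC and 5.53, 7.44 and 5.96 FPKM in si-NEAT1_2, with no overlap, and its log2 fold change of 1.16 (SE 0.240, adjusted p = 0.170, edgeR) was the largest of the list. It passed the thresholds with DESeq2 (adjusted p = 0.00538) and in edgeR's test without si-NEAT1_2 replicate 1 (adjusted p = 0.0493), and not under the other 14 alternatives, with adjusted p up to 0.557. Corrected for GC content and length it was at 0.77. SC5D, the desaturase that acts late before cholesterol, was lowest in that list at -0.40 (SE 0.182, adjusted p = 0.205, edgeR), and it was at -0.25 without NC replicate 2 and -0.17 once corrected for GC content and length.

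Of 14 genes of SREBP control, sterol uptake and transport, 13 were tested, 7 with a higher and 6 with a lower value and a median of 0.12. The highest was SCARB1, a receptor for high-density lipoprotein, at 0.63 (SE 0.157, adjusted p = 0.170, edgeR), with 17.9 ± 1.54 CPM in NC and 27.7 ± 3.76 CPM in si-NEAT1_2. In FPKM its groups overlapped, with 12.3, 9.58 and 7.92 in NC and 12.2, 10.6 and 14.4 in si-NEAT1_2. SCARB1 was at 0.30 in limma-trend fits of log2(FPKM + 1) and at 0.45 once corrected for GC content and length. Its adjusted p ran from 0.0293 (DESeq2) to 0.557 (edgeR, without NC replicate 2), and it stayed below a 2-fold change. The lowest was MBTPS2, the site-2 protease that releases SREBP from the membrane, at -0.61 (SE 0.197, adjusted p = 0.170, edgeR), with 29.1 ± 5.55 and 19.0 ± 4.12 CPM, and it was at -0.18 once corrected for GC content and length. At an unadjusted p under 0.05 this list held 2 higher and 2 lower genes of 13 tested, against 11.2% and 12.9% of all features. Neither list held a called gene.

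Among 8 fatty acid synthesis genes driven by SREBP1, 1 was higher and 0 were lower at an unadjusted p under 0.05. Of all features, 11.2% were higher and 12.9% lower at that p. The highest of the 8 was SCD, stearoyl-CoA desaturase, at 0.39 (SE 0.168). The lowest was ACACA, acetyl-CoA carboxylase, at -0.26 (SE 0.182), which was at -0.07 without si-NEAT1_2 replicate 2. Of 7 genes of sterol efflux, storage and LXR, 4 were tested, with 1 higher and 1 lower at that p, against the same shares. The higher one was NR1H2, named after its values were seen, at 0.33 (SE 0.139, unadjusted p = 0.0349, edgeR), and the lower one SOAT1. The highest fold change was that of NR1H3, which encodes LXR alpha, at 0.34 with an SE of 0.429 and an unadjusted p of 0.440 (edgeR). Leaving out 1 library moved NR1H3 between 0.02 (without NC replicate 2) and 0.93 (without NC replicate 3). The lowest was SOAT1, which esterifies cholesterol, at -0.28 (SE 0.121), and it was at 0.18 once corrected for GC content and length. Against 11.2% higher and 12.9% lower of all features, 0 of 6 genes of the non-sterol isoprenoid branch had an unadjusted p under 0.05. They ran from -0.17 (SE 0.145) for GGPS1, geranylgeranyl diphosphate synthase, which was at 0.05 with that correction, to 0.32 (SE 0.182) for COQ2, of ubiquinone synthesis, which was at 0.11 without si-NEAT1_2 replicate 2. The lowest adjusted p in these 3 lists was 0.186 (edgeR).

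Outside these lists, the 5 genes whose log2 CPM followed the mean of the 8 members most closely over the 6 libraries, among 9421 genes compared, were STMP1 (Pearson r = 0.991), WRB, CASP6 and UQCRC2 (0.989 each) and AURKA (0.985). They share the libraries with the members, and with 6 points many genes reach a high r.

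The group table of the authors listed the same 8 genes with other values. It holds 1 FPKM and 1 expected count per gene and group, with no replicate error, and how it was made from libraries was not given in the sources used here. FPKM was lower in the SI column than in the NC column for 8 of 8 members, against 65.6% of 13370 genes with at least 0.1 FPKM. A difference of 2-fold or more downwards was listed for 4 of 8 members, against 18.3% of all genes, and upwards for 0 of 8, against 5.18%. The median log2 ratio was -0.98 for the members and -0.26 for all genes.

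FDFT1 had 108.7 FPKM in NC and 27.3 FPKM in SI in that table, a log2 ratio of -1.99, whereas it was higher in si-NEAT1_2 in the libraries. IDI1 was listed at 20.0 and 8.84, HMGCS1 at 11.0 and 5.32 and MVD at 90.1 and 44.7 FPKM, the other 3 members with a ratio of 2 or more. DHCR7 (54.3 and 28.4), SQLE (22.0 and 12.2), LSS (26.5 and 21.3) and INSIG1 (56.8 and 50.7) were lower by less. The expected counts of INSIG1 were 2532 and 2550, so its lower FPKM in SI came with a nearly equal count, from column totals of 17620482 and 19529883. The log2 ratio of the table lay outside the 95% interval of the libraries for 7 of 8 members, INSIG1 being the other one. The scales differ, as the ratio is of FPKM and the interval of TMM-scaled counts. Over all genes the median was -0.26 in the table and 0.01 in the libraries. LSS was at -0.32 against a lower limit of -0.26.

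The levels themselves did not match the libraries of the same labels. The NC value of the table was above all 3 NC libraries for 6 members and below them for SQLE, and within their range for HMGCS1. MVD was 5.74 times the mean of the NC libraries, INSIG1 3.24 times, DHCR7 2.18 times and SQLE 0.660 times, against a median of 0.817 over 11018 genes with a mean of at least 1 FPKM (quartiles 0.546 and 1.29). The SI value was above all 3 si-NEAT1_2 libraries for MVD, LSS and INSIG1 and below them for HMGCS1, IDI1, FDFT1 and SQLE. FDFT1 in SI was 0.284 times the mean of the libraries.

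**Figure D4:**
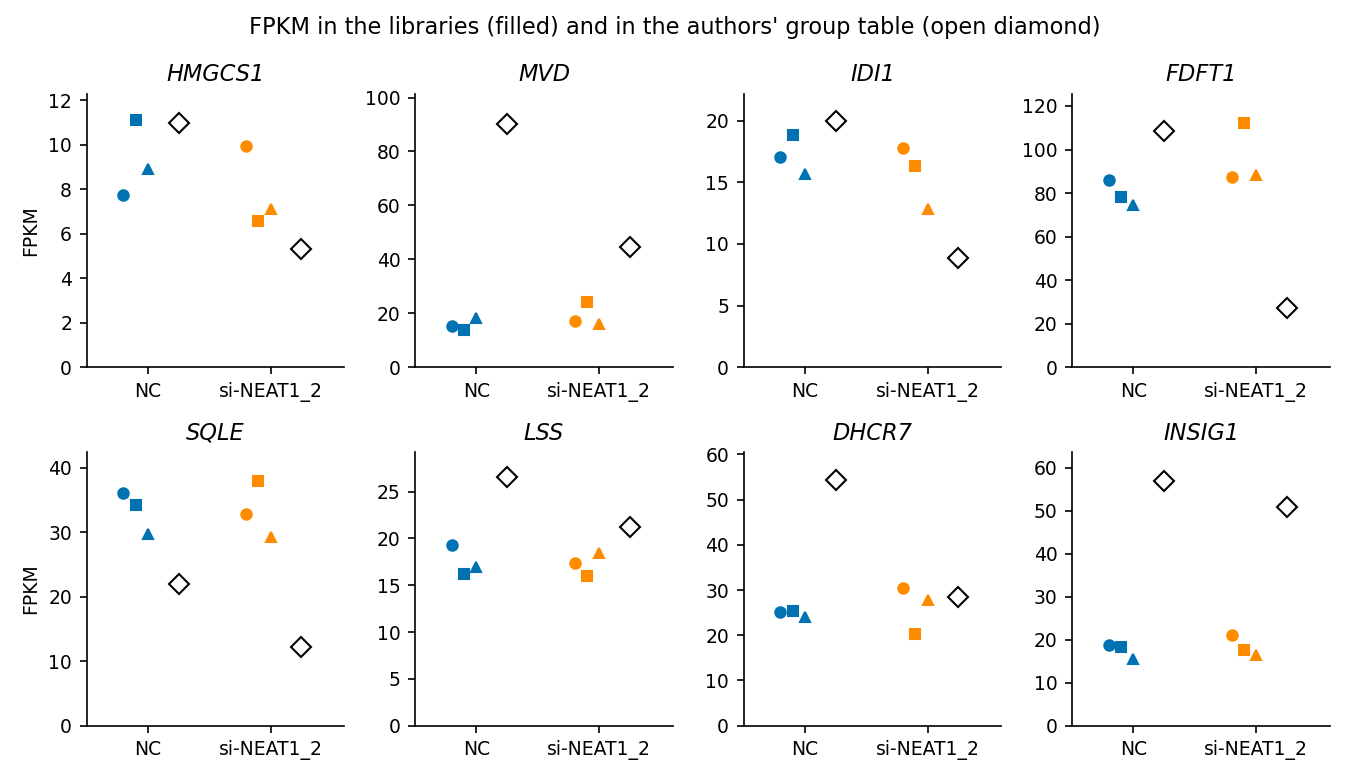
FPKM (y axes, from 0) of the 8 genes in the NC libraries (blue) and si-NEAT1_2 libraries (orange), with circles, squares and triangles for replicates 1, 2 and 3, and in the group table (open diamonds, 1 value per group). The diamond of si-NEAT1_2 is below that of NC in all 8 genes, and for MVD and INSIG1 both diamonds lie above every library.

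The rest of the pathway was lower in the table as well. Of 13 other synthesis enzymes, 13 were lower in SI and 9 by 2-fold or more, with a median log2 ratio of -1.52. Among all genes, 65.6% were lower and 18.3% by 2-fold or more. The genes of SREBP control, uptake and transport were lower in 11 of 14, with 4 by 2-fold or more, and the fatty acid genes in 8 of 8, with 4 by 2-fold or more. In the non-sterol isoprenoid branch 3 of 6 were lower, 0 of them 2-fold, with a median of 0.01. MVK (mevalonate kinase), chosen after its values were seen, was listed at 44.1 and 2.003 FPKM in the table, whereas its 6 libraries lay between 10.3 and 14.8 FPKM. SREBF2, which encodes SREBP2 and was chosen in the same way, was listed at 70.9 and 10.4 FPKM, with its libraries between 27.8 and 36.9 FPKM.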

How the data were processed

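The data comprised 6 mRNA-seq libraries of K1 cells, 3 NC and 3 si-NEAT1_2, grouped by their labels, and 1 table with a value per group. Per the study's methods, mRNA was enriched on oligo(dT) beads and depleted of rRNA, reads were mapped with TopHat2 and expression was estimated with RSEM, while the submitters' processing notes name fastp 0.18.0, Bowtie2 2.2.8, HISAT2, StringTie 1.3.1 and GRCh38. The annotation release was not given in the sources used here. The deposited expected counts are not normalized, and the deposited FPKM values were scaled by the authors for length and library size. An effective length estimated per library enters FPKM, so FPKM and CPM can order libraries differently.

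Expected counts were rounded to whole numbers, filtered with filterByExpr (13109 features left, 528 of them unannotated loci; 0.336% to 0.447% of counts lay in all 838 such loci), TMM-scaled and tested by quasi-likelihood (edgeR 4.0.16, R 4.3.3), with Benjamini-Hochberg adjustment over all features. Calls required an adjusted p under 0.05 together with a fold change of 2 or more. With 3 libraries against 3, an exact permutation test of 1 value cannot go below 0.1. Intervals are at the 95% level from the fit. GC content and length are those of the longest coding transcript in GENCODE release 29. Group table FPKM values were compared as ratios among genes with at least 0.1 FPKM, without a test. The group table's columns are the authors' values per group.

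Alternatives were no TMM, no filter, at least 10 counts in every library, DESeq2 1.42.0, limma-trend of limma 3.58.1 on log2(FPKM + 1) and log2(FPKM + 0.1), a replicate block, the L number as a factor, splines of GC content and length with 5 degrees of freedom, and the omission of each library. The fits were tested on simulated data. The members and lists were chosen with earlier results of these data known. Named besides the members were the highest and lowest fold change of each list and the 5 genes most like the members' mean, above a mean log2 CPM of 3. Other names are said to be chosen later. NEAT1 was not analysed here.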

Additional observations from a re-analysis of the deposited data

How the results depend on the processing

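No member passed the thresholds under any of 16 alternatives, and the lowest adjusted p was 0.122 (FDFT1, edgeR, without si-NEAT1_2 replicate 1). FDFT1 was higher under all 16 (0.17 to 0.45), and the median of the 8 members stayed between -0.01 and 0.12. The calls over all features were 0 and 1 (higher and lower) without TMM, 9 and 9 without the filter, 1 and 3 once corrected for GC content and length, 0 and 1 in limma-trend fits of log2(FPKM + 0.1), and 25 and 48 with DESeq2, which gave no adjusted p to 1273. Leaving out each library in turn gave 0 to 32 higher and 0 to 184 lower calls, both maxima without si-NEAT1_2 replicate 1.

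Several signs turned. Without TMM, SQLE was at -0.0423 and LSS at -0.045, with a median of all features of -0.05. In limma-trend fits SQLE was at -0.00273 and LSS at -0.0169 with a pseudocount of 1, and at -0.0029 and -0.0177 with 0.1. With the L number as a factor INSIG1 was at -0.0167. The correction for GC content and length gave 0.104 for HMGCS1, -0.025 for MVD, 0.157 for IDI1, -0.0778 for LSS, -0.088 for DHCR7, 0.175 for SOAT1 and 0.0532 for GGPS1. Together with the replicate block it gave 0.102, -0.0379, 0.147, -0.0793, -0.0972, 0.169 and 0.0568. Leaving out each library in turn moved SQLE between -0.0969 and 0.113, LSS between -0.0207 and 0.0783, INSIG1 between -0.0203 and 0.199, and IDI1 between -0.162 and 0.0487. The cause was not tested.

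The study's methods speak of pairs, but the labels tie no number to a shared culture or day. Deviations of same-numbered libraries from their group means correlated at -0.282, -0.365 and -0.008. These values cannot exclude pairs, because replicate 2 of NC and replicate 2 of si-NEAT1_2 lay at opposite ends of the first principal component. The replicate block gave 0 calls in either direction and 1538 features at an unadjusted p under 0.05 against 3165, with FDFT1 at 0.331 and MVD at 0.364, and changed no call. In the group table, a minimum of 1 FPKM left 1545 genes lower and 379 higher by 2-fold, and any value above 0 gave 3653 lower and 1997 higher. The member counts in that table kept their value under both minimums. Members had 534 to 4870 counts per library, and how much of each interval is counting error was not tested.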

Other observations

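EBP, the sterol isomerase after the C14 reductase, was chosen after its values were seen. It had 28.0, 27.0 and 25.1 FPKM in the NC libraries and 37.6, 40.2 and 33.2 FPKM in the si-NEAT1_2 libraries, and 0.26 and 0.07 FPKM in the 2 columns of the group table.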
